A study of Mus musculus with 24 samples.

Results

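The cytoplasmic ribosomal protein genes encode the protein parts of the large (Rpl) and small (Rps) ribosomal subunit. Genes were taken by symbol from the protein-coding genes of the RefSeq annotation of GRCm38.p6, and every listed H3K9me2 region that overlapped such a gene or lay within 2 kb of it was used. Of 85 annotated genes, 65 had a region (76.5%, against 55.0% of the 21900 annotated coding genes), namely 41 Rpl and 24 Rps genes. They hold 126 of the 53386 listed regions. The data are chromatin immunoprecipitation sequencing (ChIP-seq) counts of H3K9me2 and of input, the unprecipitated chromatin, in heart biopsies of 6 C57BL6 mice aged 12 months, 3 female and 3 male. All mice had undergone ischemic preconditioning (IPC): the left coronary artery was tied and released for 4 cycles of 5 min of ischemia and 5 min of reperfusion, and 30 min of reperfusion followed. One biopsy of each heart came from the area at risk (AAR), the tissue that the tied artery supplies, and the other from the remote myocardium (RM), so that AAR H3K9me2, AAR input, RM H3K9me2 and RM input have 6 libraries each. A sham procedure appears in the design text, but sham hearts were not analysed here, so each group carries the preconditioning.

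Ribosomes are built in the nucleolus from ribosomal RNA and a fixed set of proteins, whose genes are among the most active in nearly every cell. The messenger RNAs of these genes begin with a run of pyrimidines that lets the mTOR pathway set how strongly they are translated, which matters in the heart because growth and stress of the muscle change protein synthesis. H3K9me2, dimethylation of lysine 9 of histone H3, is deposited mainly by the G9a and GLP enzymes, covers broad stretches of inactive chromatin and is usually depleted from active genes.

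The printed promoters stand at start regions from both ends of the results. Rps6, Rpl9 and Rps15a have a start region that held a smaller share of H3K9me2 than of input in both biopsies. Rps7, Rpl3l and Rpl10a have a start region that passed the test in neither. Another region of Rpl3l and another of Rpl10a were nevertheless lower in H3K9me2 than in input in both biopsies. Each runs 5′ to 3′ on the gene's strand, from 150 bases before to 25 bases after the RefSeq start, and all bases lie in the region except for Rpl3l, where 50 of 175 do. Capitals mark matches on either strand to any of 5 motifs, none of which contains another. They are the core bound by ETS factors, CCGGAAG, and the site of the factor YY1, which was searched as AAGATGGC. The other motifs are the GC box that Sp1-type factors bind, spelled GGGCGG, the TATA box of many strongly regulated genes, searched as TATAAA, and the CCAAT box of the factor NF-Y.
Rps6, chr4:86857343-86857517, minus strand: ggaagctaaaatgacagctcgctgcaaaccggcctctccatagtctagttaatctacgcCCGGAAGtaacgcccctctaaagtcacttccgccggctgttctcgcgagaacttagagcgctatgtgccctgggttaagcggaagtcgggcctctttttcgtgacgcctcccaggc
Rpl9, chr5:65391407-65391581, minus strand: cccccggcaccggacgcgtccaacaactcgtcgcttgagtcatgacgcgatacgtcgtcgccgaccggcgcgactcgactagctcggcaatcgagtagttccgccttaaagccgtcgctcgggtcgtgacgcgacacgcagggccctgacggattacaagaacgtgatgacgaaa
Rps15a, chr7:118116123-118116297, minus strand: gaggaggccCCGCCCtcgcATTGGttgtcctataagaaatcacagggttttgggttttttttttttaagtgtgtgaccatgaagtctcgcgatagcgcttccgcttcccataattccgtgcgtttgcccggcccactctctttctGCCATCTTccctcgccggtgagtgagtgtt
Rps7, chr12:28635929-28636103, minus strand: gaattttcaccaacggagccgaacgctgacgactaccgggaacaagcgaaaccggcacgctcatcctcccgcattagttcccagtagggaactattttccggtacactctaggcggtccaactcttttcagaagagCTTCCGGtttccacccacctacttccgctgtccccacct
Rpl3l, chr17:24727676-24727850, plus strand: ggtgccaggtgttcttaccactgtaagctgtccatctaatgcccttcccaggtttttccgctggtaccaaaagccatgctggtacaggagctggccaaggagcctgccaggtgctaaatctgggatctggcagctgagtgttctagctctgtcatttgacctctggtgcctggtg
Rpl10a, chr17:28328321-28328495, plus strand: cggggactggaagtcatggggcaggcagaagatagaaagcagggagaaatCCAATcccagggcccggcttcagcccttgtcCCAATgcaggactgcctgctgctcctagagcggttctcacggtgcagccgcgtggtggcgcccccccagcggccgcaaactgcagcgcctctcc

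The promoter table held 48 of the 65 genes and 17492 coding genes in all, each from 250 bases before to 50 bases after the start. The ETS core was in 41.7% of the ribosomal protein promoters and in 11.8% of all coding promoters. The YY1 site was in 10.4% against 3.2%, the GC box in 60.4% against 45.9%, the TATA box in 8.3% against 13.4% and the CCAAT box in 27.1% against 39.2%. A run of 8 or more pyrimidines that began within 30 bases of the start was in 62.5% against 23.3%. CG dinucleotides numbered 23.0 in the median promoter of the group and 13.0 in that of all coding genes. Among the printed genes, the Rpl3l window of that length held 2 CG dinucleotides, the Rps15a window 17 and the Rpl9 window 35. Rpl3l, the paralog of Rpl3 that is made mainly in heart and skeletal muscle, was also without a pyrimidine run, as was Rpl10a. These matches are letters in a window and no measurement of binding.

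Of the 126 regions, 87 overlapped a gene and 39 lay only in the flank, and 33 covered a start listed in the promoter table, those of 27 genes. In 6 of the 48 genes of that table no listed start is the outermost annotated base of the gene; by that base, 35 regions covered a start, those of 28 genes. The regions were 800 to 11200 bases wide, with a median of 2800 (2600 over all regions), which is close to the whole length of many of these short genes (median 3175 bases over the genes with a region), so exons and introns cannot be told apart within them. In 18 regions no read was listed in any library (14.3%, against 9.85% of all regions), and 66 overlapped another listed region. All 18 regions without a read were among these 66. The overlapping region over the start of Rpl11 held 125 counts per kb, beside a median of 231 over member regions clear of other listed regions. How reads in shared stretches were counted is not given in the sources used here. The level of an overlapping region may therefore not cover its whole span. A further coding gene lay within 2 kb of 65 regions. The 20 genes with no region were Rpl22l1, Rps27, Rps20, Rps9, Rps27l, Rpl32l, Rps12, Rps27a, Rpl27, Rpl10l, Rps23, Rpl15, Rpl37, Rpl30, Rpl39l, Rpl24 and the X-linked Rpl39, Rpl10, Rps4x and Rpl36a. Regions were rare on the X chromosome as a whole, where 36 of 966 coding genes (3.73%) had one. Ribosomal protein genes have many processed pseudogene copies, and whether reads with several matches were counted is not given in the sources used here, so the levels of single genes are uncertain to that extent.

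Library totals over all listed regions were 416683 to 1196368 counts in AAR H3K9me2, 1286383 to 2478668 in AAR input, 443261 to 981763 in RM H3K9me2 and 1405503 to 1770520 in RM input. Levels are given as CPM, counts scaled to a common library total. A level that is lower in H3K9me2 than in input therefore means a smaller share of the library, not an absolute amount, and since biopsies are mixed tissue, fewer cells with the mark and less mark per cell cannot be told apart. Only DNA was sequenced, so the labelled tissue could not be checked against RNA markers. A region was called where the Benjamini-Hochberg adjusted p (false discovery rate, FDR) of the edgeR quasi-likelihood test over all tested regions was under 0.05, and a log2 fold change is H3K9me2 over input unless stated.

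The regions of ribosomal protein genes held a smaller share of the H3K9me2 libraries than of the input in both biopsies and in every mouse. The 126 regions together took 1351 to 1910 CPM in the AAR H3K9me2 libraries (median 1612) and 2446 to 2613 CPM in AAR input (median 2492). The remote biopsies took 1374 to 1697 CPM in H3K9me2 (median 1645) and 2477 to 2665 CPM in input (median 2529). The groups did not overlap in either biopsy. The ratio of H3K9me2 to input within a mouse was 0.61, 0.55, 0.57, 0.74, 0.69 and 0.67 in the area at risk for mice 17, 19, 22, 23, 27 and 30. It was 0.67, 0.65, 0.67, 0.54, 0.63 and 0.63 in the remote myocardium of the same mice. Mouse 23 had the highest ratio of the 6 in the area at risk and the lowest in the remote myocardium. The 3 lowest ratios in the area at risk belong to mice 17, 19 and 22, whose H3K9me2 libraries were the shallowest of that group (598199, 555333 and 416683 counts, against 674380 or more). The remote ratios did not follow depth in this way. There the shallowest H3K9me2 library, of mouse 22 (443261 counts), had 0.67 and the deepest, of mouse 30 (981763 counts), 0.63. The part of depth in these ratios was not tested.

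**Figure D1:**
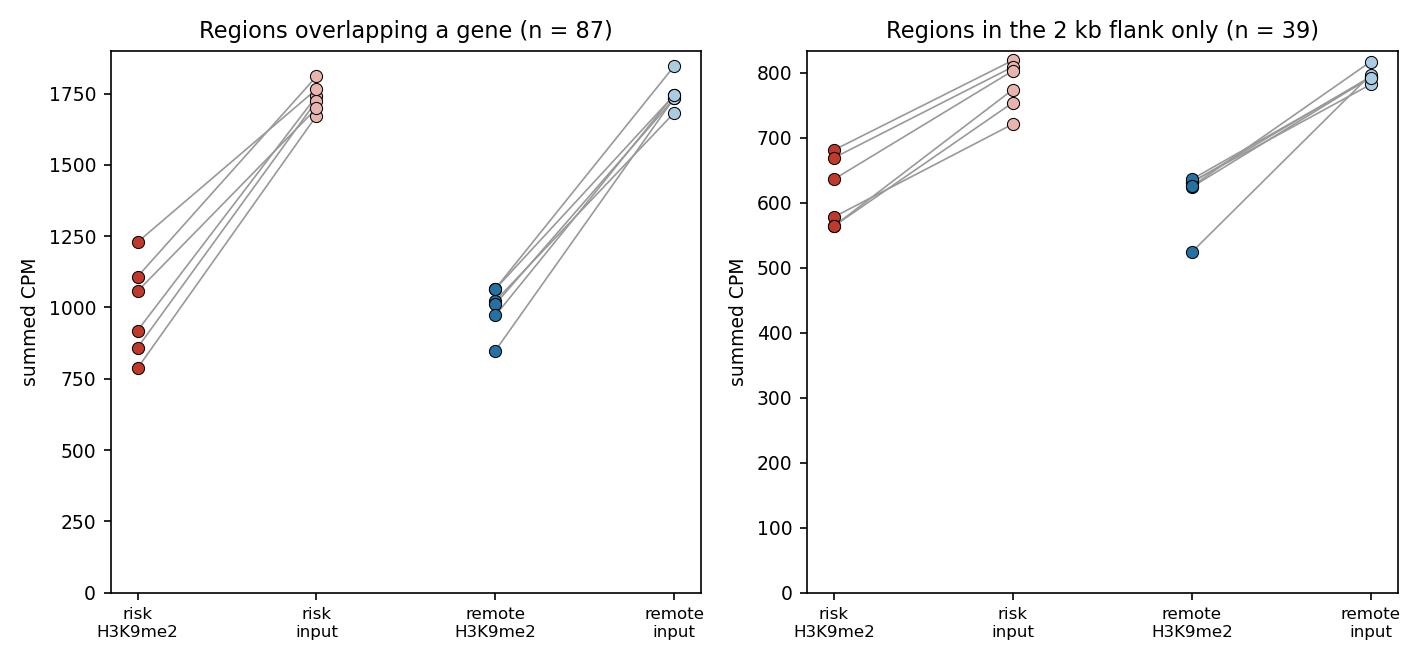
Summed CPM of the 87 regions that overlap a ribosomal protein gene (left) and of the 39 regions only in the 2 kb flank (right), 1 point per library, with lines joining H3K9me2 and input of the same mouse. Sums over the genes run from 787 to 1229 CPM in AAR H3K9me2 and from 1672 to 1810 CPM in AAR input, while flank sums run from 564 to 681 and from 721 to 819 CPM.

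In the area at risk, 85 regions of 60 genes were tested against input; 42 were lower in H3K9me2 (49.4%) and 0 were higher. Over all tested regions 12.3% were lower and 11.3% higher. The median log2 fold change was -0.57, with quartiles of -0.90 and -0.29, beside 0.01 over all regions. In 28 regions (32.9%) all 6 H3K9me2 values lay below all 6 input values, against 5.73% of all tested regions, and in 0 they lay above (2.24% of all). In DESeq2, 36 of 96 regions were lower and 0 higher (8.29% and 7.59% of all regions with an adjusted p). In edgeR 57 of the 85 had an unadjusted p under 0.05 (67.1%, against 36.5% of all). By gene, 39 had a lower region and 21 had no called region.

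In the remote myocardium, 85 regions of 59 genes were tested against input; 57 were lower (67.1%) and 1 was higher. The shares over all tested regions were 20.0% lower and 20.5% higher, and the median log2 fold change was -0.65 beside 0.01. All 6 H3K9me2 values lay below all 6 input values in 32 regions (37.6%), against 8.46% of all tested regions, and above them in 0 (6.84% of all). DESeq2 called 54 of 104 lower and 0 higher (13.7% and 14.8% of all). By gene, 47 had a lower region, 1 a higher one and 11 none. Between the biopsies, 83 regions were tested in both: 40 were lower in both, 2 only in the area at risk, 15 only in the remote myocardium, and 25 were not called in either. At gene level 37 were lower in both biopsies, among them Rps6, Rps19, Rpl7a and Rpl38. The counts by gene in each biopsy, and those of regions or genes lower in both, stand without a share over all coding genes or regions. They are a description only, and a gene with several regions has more chances of a call. The authors' deposited tables, which list an FDR for each of the 126 regions, held 49 lower and 0 higher regions in the area at risk (9.45% and 7.80% of all listed regions) and 59 lower and 1 higher in the remote myocardium (14.3% and 14.2% of all).

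**Figure D2:**
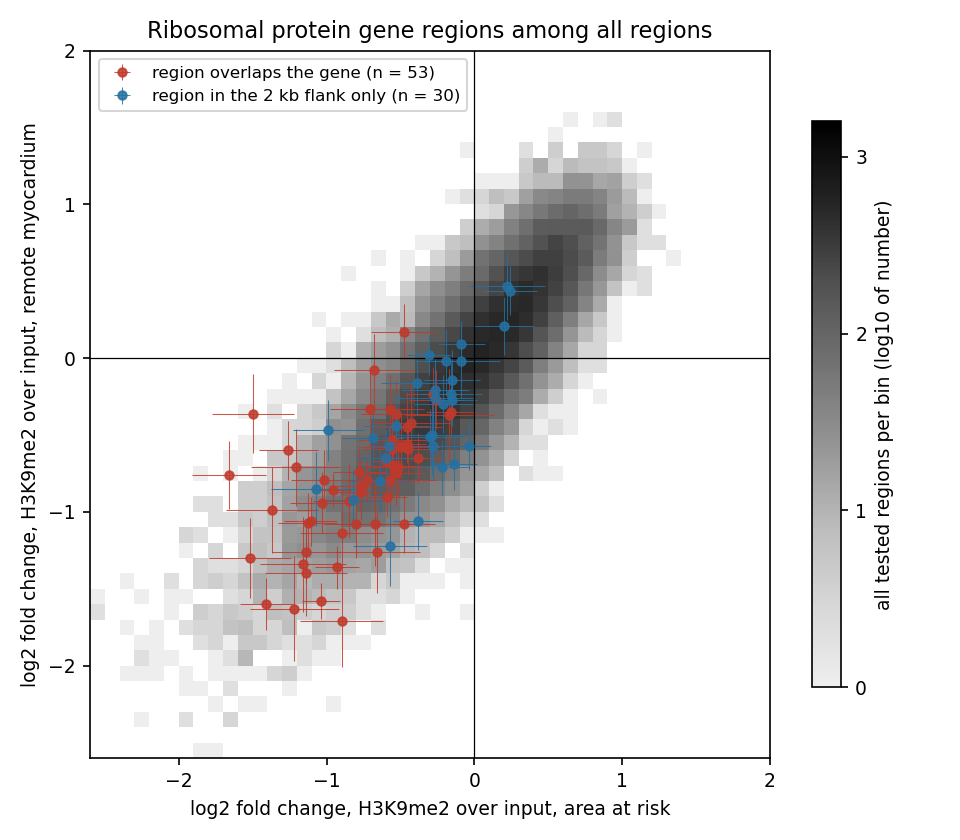
Log2 fold change of H3K9me2 over input in the area at risk (x) and the remote myocardium (y) for the 83 regions tested in both, with SE bars (red, region overlaps the gene; blue, flank only), over the density of all tested regions in grey. The red points lie below 0 on the x axis, and nearly all of them below 0 on the y axis, with Rps6 at -1.52 and -1.30.

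The filter on low counts keeps a region when enough libraries reach a minimum in CPM, and a higher input level can carry a region through it. In the area at risk, 42 of the 85 tested regions reached the minimum of 8.06 CPM in all 6 H3K9me2 libraries; of these, 19 were lower and the median was -0.46. Of the remote regions, 51 reached 8.38 CPM in all 6, of which 32 were lower, with a median of -0.57. Without the filter 47 and 62 regions were lower. Of the 12 lowest regions in each biopsy, 11 (area at risk) and 9 (remote myocardium) had at least 1 H3K9me2 library under the minimum, and 0 and 3 had all 6 under it. In the area at risk 1 library reached it at Rpl17, Rpl12, Rps2 and Rps15, and 2 at Rps6, Rplp0 and Rps15a. In the remote myocardium 1 did at Rps6 and Rps15, and 2 at Rps15a, Rpl36 and the flank of Rps2. All 6 inputs reached it there, so these regions were tested through their input. Their low rank is no support for a difference from other members.

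Among small-subunit genes, Rps6 encodes the protein that the S6 kinases phosphorylate downstream of mTOR. Its region (chr4:86856000-86857799, 425 counts in all libraries) covers the start and has no other coding gene near it. H3K9me2 levels in the area at risk were 2.40, 5.43 and 10.8 CPM (lowest, median, highest) and input levels 14.3, 19.2 and 22.3 CPM. Remote levels were 2.26, 6.73 and 11.2 CPM against 11.4, 19.0 and 21.3 CPM. The ranges did not overlap in either biopsy, although in the remote myocardium the highest H3K9me2 library came close to the lowest input library. Only 2 of 6 H3K9me2 libraries in the area at risk and 1 of 6 in the remote myocardium reached the filter's minimum, so the region was tested through its input. The log2 fold change was -1.52 (SE 0.28, FDR 5.78e-05) in the area at risk and -1.30 (SE 0.26, FDR 1.66e-05) in the remote myocardium, lower in 6 of 6 mice in each.

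Further small-subunit genes were lower in both biopsies. Rps18, a protein of the head of the subunit, had 18.4, 24.8 and 44.5 CPM of H3K9me2 against 51.8, 52.8 and 64.7 CPM of input in the area at risk (log2 -0.93) and a log2 fold change of -1.36 (SE 0.14) in the remote myocardium; 3 other coding genes, B3galt4, Vps52 and Wdr46, lie at the same region. Rps15a at its start region had log2 fold changes of -1.14 (SE 0.28) and -1.40 (SE 0.28), with no overlap between H3K9me2 and input in either biopsy. Rps15, which reaches towards the decoding site, had -1.16 and -1.34 at a region within 2 kb of Apc2. That region contains another listed region, over the start of Rps15, without a counted read. Rps14, the gene whose loss underlies the anaemia of the 5q- syndrome, had -1.14 and -1.26; here 1 of the AAR input libraries reached down into the H3K9me2 range. Rps19, the gene most often mutated in Diamond-Blackfan anaemia, had -1.11 and -1.06. Rps28 in the area at risk had -1.26 (SE 0.20), and its remote value was -0.60, at a region that also lies within 2 kb of Kank3 and Ndufa7.

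Rps2, which lines the entry channel of the messenger RNA, was lower at different regions. A region over the annotated 5′ end of the gene, with the listed start outside, was at -1.21 (SE 0.30, FDR 0.00207) in the area at risk and at -0.71 in the remote myocardium. Rnf151 also lies within 2 kb of that region. A region on the flank of Rps2, shared with Ndufb10, was at -0.57 (FDR 0.0857) in the area at risk and at -1.22 (SE 0.26, FDR 3.69e-05) in the remote myocardium. Over all regions of Rps genes, 15 of 30 were lower in the area at risk and 20 of 31 in the remote myocardium, with medians of -0.57 and -0.60.

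Among large-subunit genes, the region of Rpl13 (chr8:123101800-123104599) had the lowest log2 fold change of all tested members in the area at risk. H3K9me2 there was at 2.40, 7.79 and 11.0 CPM and input at 16.9, 28.2 and 32.6 CPM. In the remote myocardium H3K9me2 was at 9.29, 11.6 and 19.4 CPM and input at 17.8, 21.4 and 27.0 CPM. The groups stood apart in the area at risk, whereas in the remote myocardium the highest H3K9me2 library lay inside the input range. The log2 fold change was -1.66 (SE 0.25, FDR 2.41e-06) and -0.76 (FDR 0.00244). In the area at risk 3 of 6 H3K9me2 libraries reached the filter's minimum and 6 of 6 inputs did, so the region was kept through its input. The rank covers tested regions only and is no support for a difference from other members.

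Rpl41, the smallest protein of the ribosome, had the lowest value in the remote myocardium, at chr10:128547600-128548999. H3K9me2 was at 1.25, 2.26 and 6.19 CPM there and input at 8.54, 12.2 and 16.5 CPM, with no overlap (log2 -2.13, SE 0.36, FDR 2.60e-07). All 6 H3K9me2 libraries lay under the filter's minimum, so the region was tested because its input was high, and its low rank is no support for a difference from other members. In the area at risk the region did not pass the filter; H3K9me2 was at 2.41 ± 2.18 CPM (SD, n = 6) and input at 12.0 ± 2.61 CPM. With 270 counts over all 24 libraries these are few reads per library, and Zc3h10 lies within 2 kb of the region.

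Rpl9, whose promoter is printed above, had H3K9me2 at 2.90, 4.75 and 6.19 CPM and input at 11.8, 15.1 and 21.3 CPM in the remote myocardium (chr5:65390200-65391799; log2 -1.71, SE 0.30, FDR 7.94e-07). In the area at risk H3K9me2 was at 6.01, 7.78 and 11.9 CPM and input at 10.8, 14.0 and 23.0 CPM (log2 -0.90, FDR 0.0142). The groups were apart in the remote myocardium, where all 6 H3K9me2 libraries lay under the filter's minimum and the region was tested through its input, and overlapped in the area at risk. Lias, a gene of lipoic acid synthesis, shares this start. A deeply counted region lies at Rpl18 (chr7:45705400-45715999, 2261 counts), and Dbp, Car11 and Sphk2 also lie within 2 kb of it. Most of its width lies outside Rpl18, which begins at base 45715467. Its centre is at -7370 bases from the listed start (negative is upstream). The counts may therefore come mainly from sequence outside Rpl18. H3K9me2 was at 27.4, 31.7 and 43.8 CPM and input at 92.6, 102.0 and 117.0 CPM in the remote myocardium (log2 -1.58, SE 0.12, FDR 8.14e-27). H3K9me2 levels in the area at risk stood at 28.8, 34.6 and 61.9 CPM and input at 80.1, 90.5 and 101.0 CPM (log2 -1.04), so neither biopsy showed an overlap.

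Rpl12, at the base of the stalk that binds elongation factors, had log2 fold changes of -1.22 (SE 0.30) and -1.63 (SE 0.34) at a region within 2 kb of Lrsam1. In the remote myocardium all 6 H3K9me2 libraries lay under the filter's minimum, and the region was tested through its input. In the area at risk 1 of 6 H3K9me2 libraries reached the minimum. Rpl29, a protein also found at the cell surface, had -1.13 (SE 0.20) and -1.07 at a region within 2 kb of Acy1. Rpl17 had -1.37 (SE 0.31) and -0.99. At Rpl36 a region shared with Lonp1 had -0.66 (FDR 0.0886) in the area at risk and -1.26 (SE 0.27) in the remote myocardium, and its second region was lower in both. Over all regions of Rpl genes, 27 of 55 were lower in the area at risk and 37 of 54 in the remote myocardium, with medians of -0.56 and -0.66, so the medians of the large and the small subunit lay within 0.10 of each other in both biopsies.

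**Figure D3:**
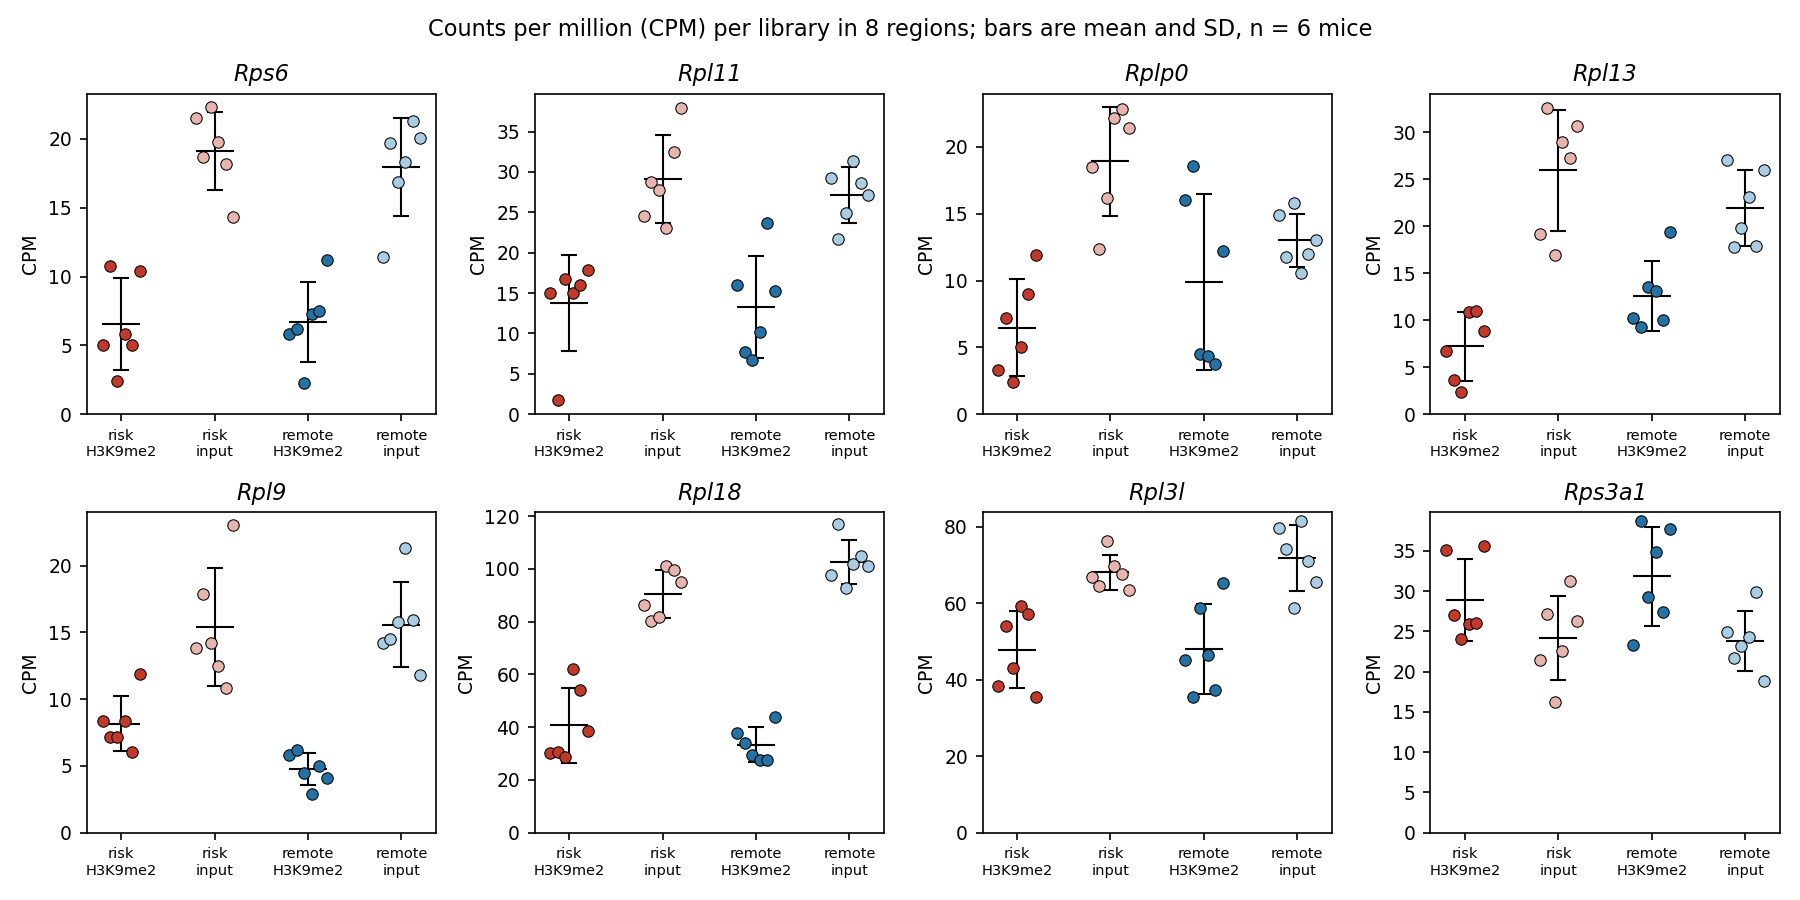
CPM of 8 regions in each library (points, 1 per mouse in each group), with the mean and SD of 6 mice as bars; the axes start at 0 and differ between panels. Rps6 and Rpl18 have H3K9me2 points below all input points in both biopsies, Rplp0 and Rpl11 do in the area at risk, and Rps3a1 has H3K9me2 points at or above most input points.

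The acidic stalk of the large subunit consists of Rplp0 and of dimers of Rplp1 and Rplp2, and activates the elongation factors. Rplp0 (chr5:115559600-115561599) had H3K9me2 at 2.40, 6.11 and 11.9 CPM and input at 12.4, 19.9 and 22.8 CPM in the area at risk (log2 -1.50, SE 0.28, FDR 8.92e-05). Remote H3K9me2 was at 3.74, 8.37 and 18.6 CPM and input at 10.6, 12.5 and 15.8 CPM (log2 -0.36, SE 0.26, FDR 0.265). The remote H3K9me2 libraries split into 3 values up to 4.51 CPM, from mice 22, 23 and 27, and 3 from 12.2 CPM upwards, which overlap the input. The low libraries are those of the 3 males and the high ones those of the 3 females. In the area at risk the sexes overlapped, with H3K9me2 at 3.34, 7.20 and 11.9 CPM in the females and 2.40, 5.02 and 9.01 CPM in the males. The part of sex in the remote split was not tested. Rplp1 had -0.71 (SE 0.27, FDR 0.0493) and -0.33 (FDR 0.280), and its call in the area at risk was lost when any 1 mouse was left out (FDR 0.0598 to 0.151) and in DESeq2 (adjusted p = 0.11). Rplp2 had -0.11 (FDR 0.846) in the area at risk and was not tested in the remote myocardium, where mouse 19 stood at 17.0 CPM and the other 5 mice at 4.99 to 6.77 CPM.

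Rpl5 and Rpl11 bind 5S ribosomal RNA and, when ribosome assembly is disturbed, the p53 regulator Mdm2. Rpl11 was lower in both biopsies (log2 -1.03, SE 0.22, FDR 3.96e-04; and -0.94, SE 0.20, FDR 4.59e-05). Its AAR H3K9me2 libraries were at 15.0 to 17.8 CPM except for mouse 19 at 1.80 CPM, and its AAR input at 23.0 to 37.9 CPM. Rpl5 had H3K9me2 at 5.93, 8.40 and 14.2 CPM and input at 12.1, 15.1 and 19.2 CPM in the area at risk (log2 -0.67, SE 0.26, FDR 0.0565), and -1.08 (SE 0.27, FDR 4.98e-04) in the remote myocardium. With the mouse as a block Rpl5 was called in the area at risk as well (FDR 0.0433), and likewise without mouse 23 (FDR 0.0287). Rpsa, also known as a laminin receptor, had -0.50 (FDR 0.177) and -0.58 (SE 0.22, FDR 0.0291); the remote call was lost without mouse 17, 19 or 23 (FDR 0.0652, 0.146 and 0.208) and in DESeq2 (adjusted p = 0.0823).

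The paralogs with tested regions were Rpl3l and Rpl7l1. The 3′ part of Rpl3l lies in a broad region that also holds Msrb1 (chr17:24734800-24742799, 1805 counts). H3K9me2 there was at 35.6, 48.6 and 59.3 CPM and input at 63.6, 67.3 and 76.4 CPM in the area at risk (log2 -0.46, SE 0.13, FDR 0.00621). In the remote myocardium it was at 35.6, 45.8 and 65.2 CPM against 58.7, 72.7 and 81.6 CPM (log2 -0.56, SE 0.12, FDR 4.88e-05). The start region of Rpl3l (chr17:24727800-24729399) was not called: it had 5.40, 7.89 and 12.5 CPM against 10.1, 15.3 and 17.6 CPM in the area at risk (log2 -0.68, FDR 0.0567). Its mean in the remote myocardium was 13.3 CPM in H3K9me2 and in input (log2 -0.08, FDR 0.816). With the mouse as a block the start region was called in the area at risk (log2 -0.73, FDR 0.0394), and without mouse 23 (FDR 0.0464). Rpl7l1, the paralog of Rpl7, had -0.53 (FDR 0.0953) and -0.36 (FDR 0.181); it was called lower in the area at risk without mouse 23 (FDR 0.0144) and in the remote myocardium without mouse 30 (FDR 0.0208). Rpl36al was not tested in either biopsy.

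Only the flank of Rps3a1, a small-subunit gene, was called higher (chr3:86143000-86145999, in the remote myocardium). H3K9me2 was at 23.3, 32.1 and 38.7 CPM and input at 18.9, 23.7 and 29.9 CPM, with overlap. The log2 fold change was 0.44 (SE 0.16, FDR 0.0208), higher in 4 of 6 mice. The call was lost in DESeq2 (adjusted p = 0.055) and without mouse 19, 23 or 30 (FDR 0.0946, 0.0529 and 0.18); in the area at risk the value was 0.24.

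Neither biopsy gave a call at any tested region of 9 genes, namely Rpl37a, Rps3, Rps13, Rpl14, Rpl23, Rps7, Rps29, Rps24 and Rpl7l1. The only listed region of Rps3, Rpl14, Rps29 and Rps24 lay in the flank, so these genes themselves were not measured. Rps7 had a well counted region over its start (920 counts), with H3K9me2 at 19.2, 28.7 and 35.6 CPM and input at 26.3, 32.4 and 38.1 CPM in the area at risk (log2 -0.16, 95% confidence interval -0.48 to 0.16). In the remote myocardium its log2 fold change was -0.35 (FDR 0.0561). Rpl23a, Rpl36al and Rpl3 had regions but none that passed the filter in either comparison.

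The median log2 fold change of regions over the genes was lower than that of regions in their flanks, a difference that was not tested. Of the regions that overlap a gene, 35 of 54 were lower in the area at risk (median -0.70) and 43 of 55 in the remote myocardium (median -0.79). Of the flank regions, 7 of 31 were lower (median -0.28) and 14 of 30 (median -0.45, with the 1 higher call). Of the regions that cover a listed start, 18 of 26 were lower in the area at risk (69.2%) and 20 of 25 in the remote myocardium (80.0%), with medians of -0.63 and -0.76. The starts of Rps15, Rplp2 and Rpl10a also lie in a listed region without a counted read. The values of their tested start regions may therefore not come from the start itself. Regions over the start of any coding gene were also often lower: 39.3% of 4555 in the area at risk, with a median of -0.41, and 51.8% of 4537 in the remote myocardium, with a median of -0.47. With the outermost annotated base as the start, an alternative chosen after seeing the data, 19 of 27 and 21 of 26 were lower, beside 39.7% and 52.1% for any coding gene.

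**Figure D4:**
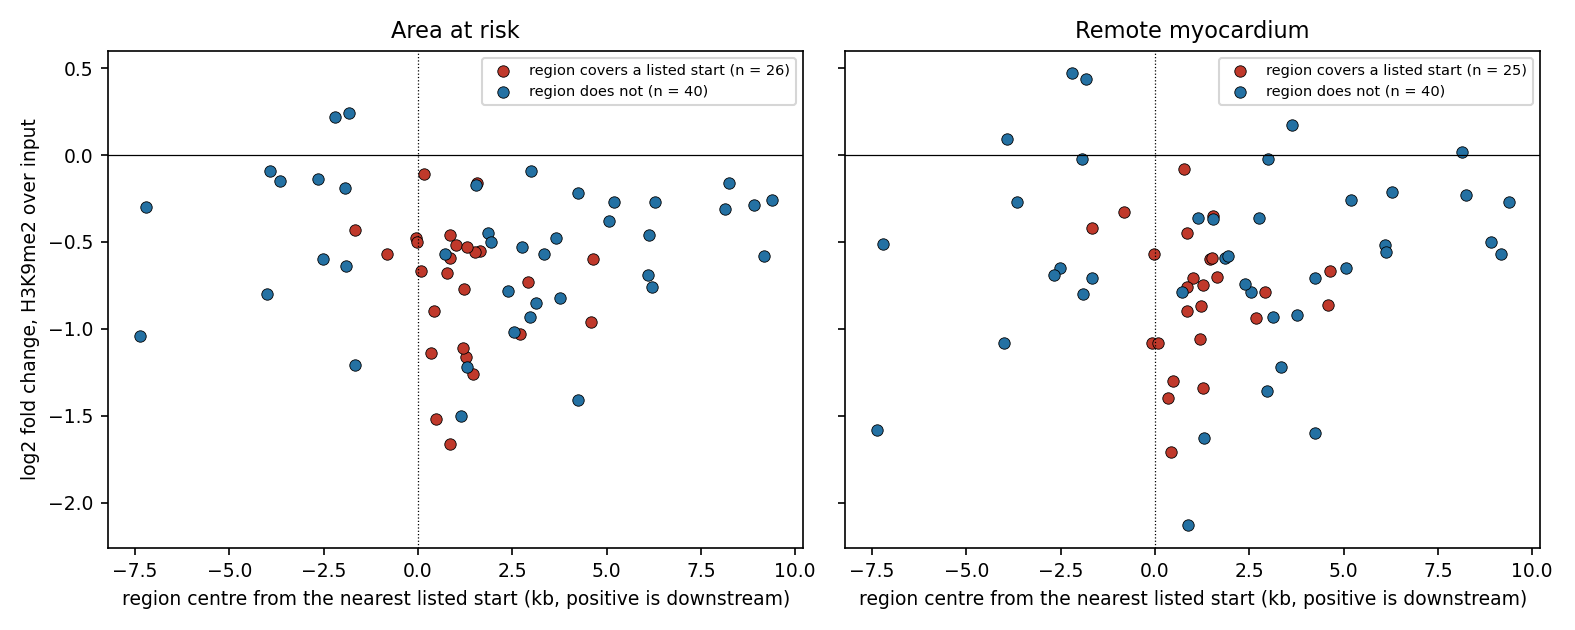
Log2 fold change of H3K9me2 over input against the distance of the region's centre from the nearest listed start in kb (positive is downstream), for the regions of genes in the promoter table; red regions cover a start (26 in the area at risk, 25 in the remote myocardium). Values under -1 lie mostly within a few kb of a start.

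Neighbouring genes shared many of the regions. Where no other coding gene lay within 2 kb, 16 of 41 regions were lower in the area at risk and 22 of 41 in the remote myocardium, with medians of -0.53 and -0.57. Where one did, 26 of 44 and 35 of 44 were lower, with medians of -0.60 and -0.73. Among the regions clear of any other listed region, 29 of 58 and 42 of 58 were lower (medians -0.58 and -0.68). Genes that carry small nucleolar RNAs in their introns, 24 of the 65, had medians of -0.56 and -0.58, and the others -0.58 and -0.69.

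No region of these genes was called between the biopsies. For AAR against RM H3K9me2, 51 regions of 41 genes were tested with edgeR, 0 were higher or lower, as over all regions (0%), and the median log2 fold change was 0.05. An unadjusted p under 0.05 was found at 6 (11.8%, against 4.03% of all), and DESeq2 also called 0. The AAR values lay all below the RM values at 0 regions (0.0856% of all) and all above them at 0 (0.0825%). The smallest p was at a flank region of Rpl28 (chr7:4788400-4792199), with 23.4, 29.6 and 40.0 CPM in the area at risk and 13.2, 22.8 and 24.8 CPM in the remote myocardium. Its values overlapped, were higher in 5 of 6 mice and differed by 0.58 on the log2 scale (SE 0.21, edgeR FDR 0.999). A flank region of Rpl8, a protein near the peptidyl transferase centre, had 0.57 (SE 0.23), the flank of Rps14 0.48 (SE 0.20) and the 3′ region of Rps15a -0.53 (SE 0.24), each with an FDR of 0.999.

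The inputs were compared as a background for these differences. Of 95 regions tested between AAR and RM input, 0 were called (0% of all), 5 had an unadjusted edgeR p under 0.05 (5.26%, against 2.72% of all), and the median was -0.01; DESeq2 called 0. All 6 AAR values lay below all 6 RM values at 0 regions (0.0610% of all tested regions) and above them at 1 (0.0751%), the start region of Rpl18, with 35.4 to 45.2 CPM against 28.5 to 34.3 CPM (log2 0.36, SE 0.11, FDR 1.000). At Rplp0 the AAR input was the higher one in 6 of 6 mice (log2 0.57, SE 0.18, FDR 1.000).

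With the input of each biopsy taken into account, 92 regions were tested for a difference between AAR and RM and 0 were called (0% of all), 10 had an unadjusted edgeR p under 0.05 (10.9%, against 4.07% of all), and the median was 0.06. Rplp0, lower than input in the area at risk and not called in the remote myocardium, had a difference of -1.13 (95% confidence interval -1.94 to -0.33, edgeR FDR 1.000), of which the inputs themselves make up a part, as given above. The Rpl18 region with Dbp had 0.56 (SE 0.19) and a flank region of Rpl8 0.69 (SE 0.26), each with an FDR of 1.000. Regions called in 1 biopsy only are therefore not shown to differ between the biopsies.

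Other genes of translation were taken as whole lists, to be read beside the 12.3% lower and 11.3% higher of all tested regions in the area at risk, and the 20.0% and 20.5% for the remote myocardium. Of the genes that build ribosomes or transcribe their RNA, 31 of 39 had a region, and 13 of 61 tested regions were lower in the area at risk (21.3%, median -0.23) and 17 were lower and 3 higher of 61 in the remote myocardium (27.9% and 4.92%, median -0.24). Ubtf, the factor that activates ribosomal RNA genes, was lower in both (log2 -1.61 and -2.18). Its mean H3K9me2 level in the remote myocardium, 7.08 CPM, lay under the filter's minimum of 8.38 CPM. Initiation and elongation factors had 24 lower and 2 higher of 72 (33.3% and 2.78%, median -0.39) and 37 lower and 1 higher of 73 (50.7% and 1.37%, median -0.46). The lowest was Pabpc1, which binds the poly(A) tail. In the area at risk it had 2.78 ± 0.897 CPM of H3K9me2 (SD, n = 6) against 15.7 ± 3.98 CPM of input (log2 -2.39, SE 0.35, FDR 1.17e-06). Its remote log2 fold change was -2.09. Its mean H3K9me2 levels, 2.78 and 4.30 CPM, lay under the filter's minimums of 8.06 and 8.38 CPM. The region was therefore tested because its input was high, and its low rank is no support for a difference from other genes.

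Mitochondrial ribosomal protein genes had 24 lower and 0 higher of 91 tested regions (26.4% lower, median -0.30) and 41 lower and 4 higher of 94 (43.6% and 4.26%, median -0.39), with Mrps18b at -1.43 and -1.75. The S6 kinase genes had 3 lower and 1 higher of 36 (8.33% and 2.78%, median 0.06) and 6 lower and 5 higher of 36 (16.7% and 13.9%, median 0.07), lower shares near and below those of all regions. Of 318 annotated ribosomal protein pseudogenes, 38 had a region; 3 were lower and 6 higher of 42 tested in the area at risk (7.14% and 14.3%, median 0.03), and 4 lower and 11 higher of 42 in the remote myocardium (9.52% and 26.2%, median 0.04). At Rpl36-ps4, for example, the log2 fold change in the area at risk was 0.85 (FDR 0.00104). At Rpl30-ps6 the log2 fold change in the remote myocardium was -1.42 (FDR 1.19e-05). Its mean H3K9me2 level there, 5.38 CPM, lay under the filter's minimum of 8.38 CPM. The pseudogene medians lay near those of all regions, and the medians of the genes themselves below; these differences between lists were not tested.

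**Figure D5:**
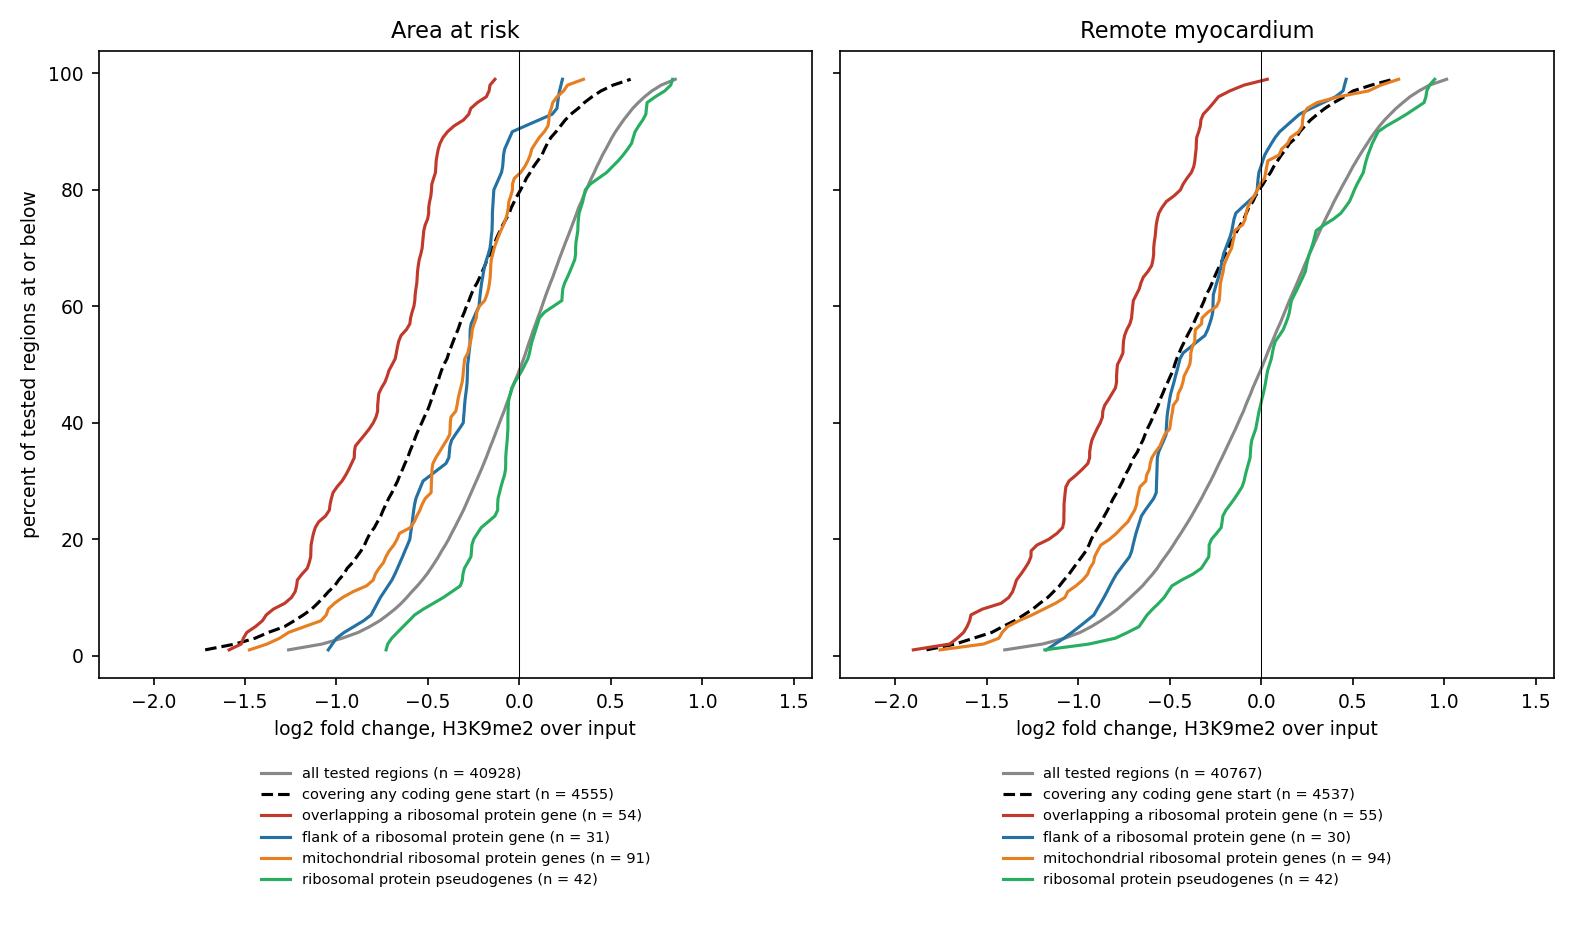
Percent of tested regions at or below each log2 fold change of H3K9me2 over input, in the area at risk (left) and the remote myocardium (right), for 6 sets of regions. The curve of regions that overlap a ribosomal protein gene (red) lies left of that of regions over any coding gene start (dashed) except at its lowest end, with medians of -0.70 against -0.41 and -0.79 against -0.47, and the pseudogene curve (green) lies near that of all regions (grey).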

How the data were processed

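H3K9me2 ChIP and input libraries of 6 mice and 2 biopsies were compared over 53386 regions of build mm10. The authors deposited 4 tables of counts per region and library, with a log2 fold change, a log2 mean CPM, a p-value and an FDR, per the file headers. Bowtie2 2.2.2, SICER 1.1 and edgeR are named, without roles, per the submitters' processing notes. Which reads were counted is not given in the sources used here. Coordinates are printed as in the deposited tables.

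Members and lists were chosen with earlier results of these data known. Each comparison was fitted on all regions with edgeR 4.0.16 (R 4.3.3): filterByExpr, TMM, quasi-likelihood test, two-sided, FDR 0.05, without a block. Mean ± SD and lowest, median and highest values are CPM of the library's total over all regions, 6 mice a group. Intervals and tests cover the spread between mice, and few counts per library limit regions under about 10 CPM. Regions are assigned to genes of GRCm38.p6, and the scripts were tested on simulated data. Named regions are the 12 lowest and any higher ones of each H3K9me2 against input comparison, the 4 smallest p of the others, paralogs, and Rplp0, Rplp1, Rplp2, Rpsa, Rps6, Rpl5 and Rpl11; other genes in the text, such as Rps7, Rps19, Rpl7a and Rpl38, were chosen after their values were seen. Counts over all members include some genes whose own values are not reported here.

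Labels give the same mouse number to the 4 libraries of an animal, so the numbers pair the samples. Deviations from group means of same-numbered libraries correlated at -0.01 to 0.18 (AAR H3K9me2 and input), 0.01 to 0.09 (RM H3K9me2 and input), -0.17 to 0.06 (H3K9me2 of the biopsies) and -0.07 to 0.04 (inputs) over 40684 regions. Alternatives were the mouse as a block, DESeq2 1.42.0, other scalings, no filter, each mouse left out, a stricter FDR of 0.01, a minimum absolute log2 fold change of 0.5, and narrower sets of regions.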

Additional observations from a re-analysis of the deposited data

Results flagged for a closer look

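Within groups of 6 libraries, 7 of 132 checked values stood apart from the other 5 by Dixon's test at the 95% level (critical value 0.625); chance alone gives about 1 in 20 groups, or 6.6 of 132. Mouse 19 accounts for 2. Its RM H3K9me2 library stood at 17.0 CPM at Rplp2 (others 4.99 to 6.77). Its AAR H3K9me2 library stood at 1.80 CPM at Rpl11 (others 15.0 to 17.8).

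In input, mouse 27 was low at Rps14 in the area at risk, with 15.4 CPM (others 26.4 to 31.8). Mouse 30 was high at Rps18 in AAR input, with 64.7 CPM (others 51.8 to 53.7), and mouse 17 at Rpl8, with 35.4 CPM (others 28.0 to 30.3). Summed over all 126 regions, mouse 23 was low in RM H3K9me2, at 1374 CPM (others 1608 to 1697), and mouse 30 high in RM input, at 2665 CPM (others 2477 to 2538).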

How the results depend on the processing

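With the mouse as a block, which pairs the libraries of an animal, 46 regions were lower in the area at risk, among them all 42 of the unblocked fit, and 57 in the remote myocardium, 56 of them shared; apart from Rpl5 and the start region of Rpl3l in the area at risk, no named region changed its call. DESeq2 called 36 lower regions in the area at risk (34 shared) and 54 in the remote myocardium (49 shared); it was not run for the input-corrected difference. Leaving out each mouse in turn gave 34 to 44 lower regions in the area at risk and 52 to 56 in the remote myocardium. The medians then ran from -0.63 to -0.55 and from -0.69 to -0.63. Those of the 3 comparisons between biopsies ran from -0.02 to 0.08 (H3K9me2), -0.02 to 0.01 (input) and -0.03 to 0.08 (input-corrected), each with 0 to 0 calls.

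Restricting the members to regions with no other coding gene within 2 kb gave 16 lower regions in the area at risk, and for the remote myocardium 22, where the median was -0.57; fewer regions are counted there (41 in each). Regions overlapping the gene alone had a remote median of -0.79. The 1 higher region of the remote myocardium fell to 0 in DESeq2, at an FDR of 0.01, with a minimum absolute log2 fold change of 0.5 and among regions overlapping a gene, and to 0 or 1 when a mouse was left out; without mouse 30 the 1 region was a flank of Rpl27a (log2 0.62, FDR 0.0357), not that of Rps3a1. Signs turned only for values near 0: Rplp2 in the area at risk ran from -0.22 to 0.10 as mice were left out (0.10 without mouse 30), and the Rpl3l start region in the remote myocardium from -0.35 to 0.14 (0.03, 0.05 and 0.14 without mouse 23, 27 or 30). The cause of these changes was not tested. Over the named regions, the refits (block, other scalings, no filter, DESeq2, a mouse left out) lost a call 17 times, at Rplp1 (9 refits), Rpsa (4) and Rps3a1 (4), and gained one 6 times, at Rpl5, Rpl7l1 and the Rpl3l start region. The FDR of 0.01 removed 3 further calls, at the same 3 genes, and the minimum log2 fold change 2, at Rps3a1 and the 3′ region of Rpl3l in the area at risk.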
